A study of Homo sapiens and Mus musculus with 81 samples.

Results

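Transcripts of Hepa1-6 cells, a mouse hepatoma line, were compared at 12 h against 6 h after transfection. Among the 98 genes that changed, inhibitors and chemokines of the NF-kB pathway, immediate early factors, a metallothionein and cholesterol synthesis enzymes were lower at 12 h, and an RNA-binding protein, glutathione transferases, matrix proteases and the genes for cyclin G2 and p27 were higher. The comparison took all 4 Hepa1-6 arrays at 12 h and all 4 at 6 h, which are 8 of the 81 arrays of the series. At each time there was 1 array for cells given the siRNA APOB-Hs1, 1 for APOB-Hs3, 1 for APOB-Hs4 and 1 for mock transfected cells, and each 12 h array was set against the 6 h array of the same treatment. The siRNAs were used at 10 nM in Lipofectamine RNAiMAX, a lipid reagent, in 6-well plates, and all 3 are named for human APOB. The study asked how far siRNAs move transcripts other than their target in mouse and human liver cells, and also held later Hepa1-6 arrays, the human liver cancer lines HUH7 and PLC/PRF/5, and mouse livers.

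The 4 treatments stood in place of replicates, since each treatment and time had 1 array, and the labels do not say whether the arrays came from separate cultures. The p-values therefore measure only the spread between these arrays. Time after transfection, time in culture and the hour of harvest cannot be told apart. In bulk RNA, fewer cells of a type and less RNA per cell cannot be told apart either. Values are log2 of the deposited intensities, and differences are 12 h minus 6 h on that scale unless another pair of times is named. Levels are not compared between genes, since probe sets differ in brightness. Where 4 values are listed, the siRNAs come first, by their number, and mock comes last.

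The 8 arrays had close medians, from 4.45 to 4.50 (log2), and their lowest pairwise correlation across genes was 0.995. Albumin transcript (Alb) averaged 11.94 ± 0.05 at 12 h and 12.08 ± 0.05 at 6 h, and the fetal liver marker Afp averaged 12.74 ± 0.06 at 12 h and 12.77 ± 0.05 at 6 h (SD, n = 4 each). No detection calls were used, and levels of different probe sets do not decide which cells were present. Dcn, a matrix proteoglycan gene of the stellate cell and fibroblast list, stood at 13.89 at 12 h and 13.95 at 6 h. The summed linear intensity of the Kupffer cell list ran from 546 to 593 at 12 h and from 504 to 562 at 6 h, and of the hepatocyte list from 25081 to 26118 at 12 h and from 26025 to 26681 at 6 h. The stellate list ran from 15079 to 15680 at 12 h and from 15903 to 16080 at 6 h, nearly all of it Dcn. The endothelial list ran from 285 to 309 at 12 h and from 291 to 322 at 6 h, and the lymphocyte and red cell list from 190 to 206 at 12 h and from 195 to 199 at 6 h. No member of these 5 lists passed the test of all genes between the times, though with the dimmer genes left out Fgb, a fibrinogen gene of the hepatocyte list, fell by 0.26 on the log2 scale (adjusted p = 0.045), and the part of these cells' markers in the results below was not tested.

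As background, cells that are handled, transfected or given fresh medium switch on immediate early genes, which encode short-lived transcription factors, and NF-kB target genes, which include chemokines and the inhibitors that turn NF-kB off again. The sterol pathway works by feedback: when membranes of the endoplasmic reticulum are rich in cholesterol, INSIG proteins hold back the SREBP transcription factors, and transcripts of the synthesis enzymes and of Insig1 itself decline. Glutathione transferases and metallothioneins protect liver cells from electrophiles and metals, and cyclin-dependent kinase inhibitors and FOXO targets restrain division.

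Of 21931 genes, 98 changed between the times at a Benjamini-Hochberg adjusted p under 0.05 in limma, 55 higher and 43 lower at 12 h (0.447% of genes, 0.251% higher and 0.196% lower). All 98 had the same sign in the 4 treatments, as did 23.9% of all genes (13.9% higher and 9.96% lower). The 12 h and 6 h arrays did not overlap for 96 of them, against 8.56% of all genes. Since the 98 were picked from these same arrays, the shared sign and the lack of overlap largely follow from the choice. The higher genes differed by 0.36 to 1.15 (median 0.54) and the lower genes by -0.37 to -1.04 (median -0.56), so that 3 rose and 1 fell by a factor of 2 or more. In mock cells alone the median was 0.53 over the higher genes and -0.48 over the lower genes, against 0.006 over all genes. These genes were picked with the mock arrays included, so this is no separate test of mock cells. The calls needed all 4 treatments: 0 genes passed without APOB-Hs1, 2 without APOB-Hs3, 1 without APOB-Hs4 and 3 without mock. All 98 kept an unadjusted p under 0.05 in each of these fits. They kept their sign too, but that was fixed beforehand by a sign shared by all 4 treatments. The count depended on the dim genes as well, since 697 genes passed (6.36% of those tested, 454 or 4.14% higher and 243 or 2.22% lower) when the 10965 genes under the median level were left out ("dim" below).

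The transcripts that rose most were Rbm3, Klhl24 and Sprr1b. Rbm3 encodes an RNA-binding protein known from mild cold and low oxygen. It stood at 7.64, 7.62, 7.42 and 7.78 at 12 h, against 6.49, 6.46, 6.34 and 6.56 at 6 h. All 4 arrays at 12 h lay above all 4 at 6 h, with a difference of 1.15 (SE 0.0552, limma adjusted p = 0.00191), or 2.22-fold, and both of its probe sets were higher (0.77 and 1.15). Klhl24, a substrate adaptor of a ubiquitin ligase, stood at 6.42, 6.55, 6.20 and 6.12 at 12 h, against 5.36, 5.12, 5.37 and 5.10 at 6 h. The groups did not overlap, and Klhl24 rose by 1.08 (SE 0.0953, adjusted p = 0.0199), while its 4 probe sets ranged from 0.12 to 1.08. Sprr1b, a precursor of the cornified envelope of squamous epithelium, stood at 10.01, 9.80, 9.55 and 9.64 at 12 h, against 8.82, 8.63, 8.57 and 8.74 at 6 h. It rose by 1.06 (SE 0.07, adjusted p = 0.00961), again without overlap. Cirbp, a close relative of Rbm3 that cold also induces, was chosen once its values were known. It stood lower, at 7.43, 7.07, 7.17 and 7.20 at 12 h, against 7.85, 7.67, 7.67 and 7.65 at 6 h, a fall of 0.49 on the log2 scale (SE 0.0576, adjusted p = 0.0292) with no overlap.

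**Figure D1:**
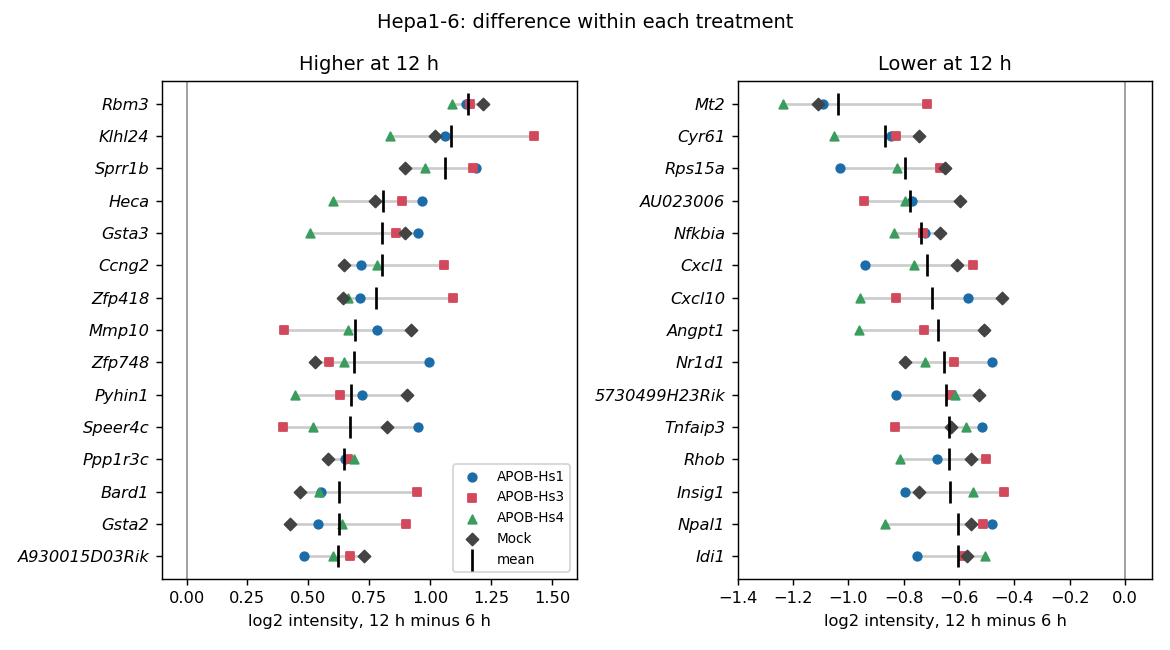
The 15 genes with the largest rise and the 15 with the largest fall past the test, drawn as the log2 difference 12 h minus 6 h (x axis) within each treatment (coloured points, 1 pair of arrays each), with the mean as a black tick and a grey line over the range. Every point lies on the same side of 0 as its gene's mean, and the means run from 0.62 to 1.15 on the higher side and from -1.04 to -0.60 on the lower side.

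Of 25 FOXO and insulin-regulated genes, Ccng2 and Cdkn1b rose, where 0.251% of all genes rose. Ccng2 encodes cyclin G2, an atypical cyclin of resting cells and a FOXO target. It stood at 7.75, 7.96, 7.65 and 7.61 at 12 h, against 7.03, 6.90, 6.86 and 6.96 at 6 h, and rose by 0.80 (SE 0.0779, adjusted p = 0.0241). Cdkn1b, which encodes the kinase inhibitor p27, stood at 10.21, 10.29, 10.25 and 10.10 at 12 h, against 9.88, 9.71, 9.80 and 9.71 at 6 h, and rose by 0.44 (SE 0.0629, adjusted p = 0.0467). Neither gene's groups overlapped, but the 3 probe sets of Cdkn1b ranged from -0.07 to 0.44. In the list 0 fell, and its median was 0.03, against 0.003 over all genes. Of the 19 members tested with dim genes left out 3 rose, adding Irs2, an insulin receptor substrate (0.30, adjusted p = 0.0371), and 1 fell, Cited2 (-0.21, adjusted p = 0.0444). Over all genes in that fit 4.14% rose and 2.22% fell. Heca, the mammalian counterpart of the fly gene headcase, rose by 0.80 (adjusted p = 0.0199), with arrays at 5.93 to 6.29 at 12 h, against 5.28 to 5.41 at 6 h. Of the division lists, 0 of 30 genes of the G1/S phase and DNA replication (median 0.05) and 0 of 28 of G2/M and mitosis (median 0.03) were called in either direction in the test of all genes. In the fit without dim genes 2 of 28 G1/S genes fell, Ccnd1 (-0.38, adjusted p = 0.049) and Gins2 (-0.29, adjusted p = 0.0321), and 1 of 28 G2/M genes fell, Cenpa (-0.26, adjusted p = 0.025).

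Among detoxification genes, a pair of glutathione transferases rose and a metallothionein fell. Gsta3, a glutathione transferase of the alpha class, stood at 8.85, 8.68, 8.35 and 8.59 at 12 h, against 7.90, 7.82, 7.84 and 7.70 at 6 h. It rose by 0.80 (SE 0.0831, adjusted p = 0.0241), and Gsta2 of the same class rose by 0.63 (SE 0.0835, adjusted p = 0.0387), at 5.84, 5.80, 5.84 and 5.52 at 12 h, against 5.30, 4.90, 5.20 and 5.10 at 6 h. Neither overlapped, but alpha class genes are close in sequence and their probes may share signal. Mt2, a metallothionein that binds zinc and copper, fell most of all genes tested, to 10.65, 10.99, 10.50 and 10.62 at 12 h, against 11.74, 11.71, 11.74 and 11.72 at 6 h. The 6 h arrays lay within a narrow band above all 12 h arrays, with a difference of -1.04 (SE 0.0891, adjusted p = 0.0199), although a second probe set gave -0.16. The neighbouring metallothionein gene Mt1 averaged 12.07 ± 0.11 at 12 h and 12.44 ± 0.04 at 6 h (SD, n = 4 each) and missed the test (-0.37, adjusted p = 0.0686). Of 26 NRF2 and redox genes these 3 passed, 2 higher and 1 lower, with a median of 0.009, where 0.251% of all genes rose and 0.196% fell. Without the dim genes 4 of 24 rose, adding Gsta4 (0.37) and Nqo1 (0.24), and 3 fell, adding Mt1 (adjusted p = 0.0136) and Osgin1 (-0.28). Over all genes in that fit 4.14% rose and 2.22% fell. Hmox1, heme oxygenase, was at -0.06 (adjusted p = 0.821).

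A pair of matrix-degrading enzymes rose. Mmp10, stromelysin-2, stood at 8.47, 8.12, 8.28 and 8.54 at 12 h, against 7.69, 7.73, 7.62 and 7.62 at 6 h, and rose by 0.69 (SE 0.0882, adjusted p = 0.0356). Mmp13, a collagenase, stood at 11.39, 11.19, 11.25 and 11.41 at 12 h, against 10.84, 10.65, 10.73 and 10.72 at 6 h, and rose by 0.57 (SE 0.0582, adjusted p = 0.0241). The groups did not overlap for either. They were the 2 of 27 integrin and matrix genes that passed, where 0.251% of all genes rose, with 0 lower and a median of 0.008. Angpt1, a ligand of the endothelial receptor TIE2, stood at 4.85, 4.58, 4.55 and 4.52 at 12 h, against 5.36, 5.31, 5.51 and 5.03 at 6 h. It fell by 0.68 on the log2 scale (adjusted p = 0.0356) at a level just under the median of all genes. Its antagonist Angpt2, chosen after its values were seen, rose by 0.56 (SE 0.0637, adjusted p = 0.027), at 8.49, 8.48, 8.63 and 8.43 at 12 h, against 8.06, 7.92, 7.92 and 7.89 at 6 h.

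Among NF-kB target genes, a pair of the pathway's own inhibitors and a chemokine fell. Nfkbia, which encodes the inhibitor IkB-alpha, stood at 9.20, 9.36, 9.23 and 9.26 at 12 h, against 9.92, 10.09, 10.07 and 9.93 at 6 h. It fell by 0.74 on the log2 scale (SE 0.0571, adjusted p = 0.0151). Tnfaip3, the ubiquitin-editing inhibitor A20, stood at 8.60, 8.36, 8.40 and 8.38 at 12 h, against 9.12, 9.19, 8.98 and 9.01 at 6 h, and its difference was -0.64 (SE 0.0684, adjusted p = 0.0241). Neither inhibitor's groups overlapped. Among chemokines, the neutrophil attractant Cxcl1 stood at 6.55, 6.96, 6.70 and 6.81 at 12 h, against 7.49, 7.51, 7.46 and 7.42 at 6 h (-0.72, SE 0.0768, adjusted p = 0.0241). The interferon-induced chemokine Cxcl10 fell in each treatment (-0.70, SE 0.0917, adjusted p = 0.0364), but its arrays overlapped, at 7.73, 7.29, 7.89 and 8.12 at 12 h, against 8.30, 8.11, 8.85 and 8.57 at 6 h. It was the 1 of 28 interferon response genes that passed, where 0.196% of all genes fell, and that list's median was -0.02.

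Over the 25 genes of the NF-kB and inflammation list, 3 fell (Nfkbia, Tnfaip3 and Cxcl1) and 0 rose, where 0.196% of all genes fell and 0.251% rose. In all 4 treatments 10 were lower, against 9.96% of all genes, and the median was -0.11. The monocyte attractant Ccl2 averaged 12.03 ± 0.31 at 12 h and 12.61 ± 0.10 at 6 h (SD, n = 4 each), and just missed the test (-0.58, adjusted p = 0.0507). The adhesion molecule gene Icam1 was at -0.50 (adjusted p = 0.079). With dim genes left out, 8 of the 19 members tested fell and 0 rose, Ccl2 and Icam1 among them, where 2.22% of all genes in that fit fell. The cytokine genes Il6 at -0.11 and Tnf at -0.09 did not pass in the test of all genes and were left out of the other as dim.

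Of 25 immediate early and AP-1 genes, 4 fell and 0 rose, where 0.196% of all genes fell and 0.251% rose. Myc, the growth-promoting transcription factor gene, stood at 10.47, 10.24, 10.05 and 10.32 at 12 h, against 10.99, 10.79, 10.79 and 10.80 at 6 h (-0.57, SE 0.064, adjusted p = 0.0248). Ier3, a stress-induced survival gene, stood at 9.92, 10.02, 9.73 and 9.84 at 12 h, against 10.47, 10.42, 10.57 and 10.38 at 6 h (-0.58, SE 0.079, adjusted p = 0.0415). The zinc finger factors Klf6 and Klf4 fell by 0.51 and by 0.47 on the log2 scale (adjusted p = 0.0311 each). None of these 4 overlapped between the times, where 8.56% of all genes did not overlap, but they were picked from the same arrays. Over the list 16 genes were lower in all 4 treatments, against 9.96% of all genes. The median was -0.23, with medians of -0.31, -0.25, -0.27 and -0.18 by treatment. With dim genes left out 13 of the 22 members tested fell and 0 rose, where 2.22% of all genes in that fit fell. These 13 also held Egr1 (-0.56), Jun (-0.43) and Atf3 (-0.34). Fos at -0.15 and Junb at -0.12 passed in neither fit. Dusp1, the phosphatase that switches off MAP kinases, was at -0.64 with an adjusted p of 0.0755 in all genes and passed with dim genes left out (0.0242). So did Dusp14 (-0.24, adjusted p = 0.0481), while Dusp6 rose (0.28, adjusted p = 0.0333), so that of 18 MAPK feedback regulators 1 rose and 2 fell there.

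**Figure D2:**
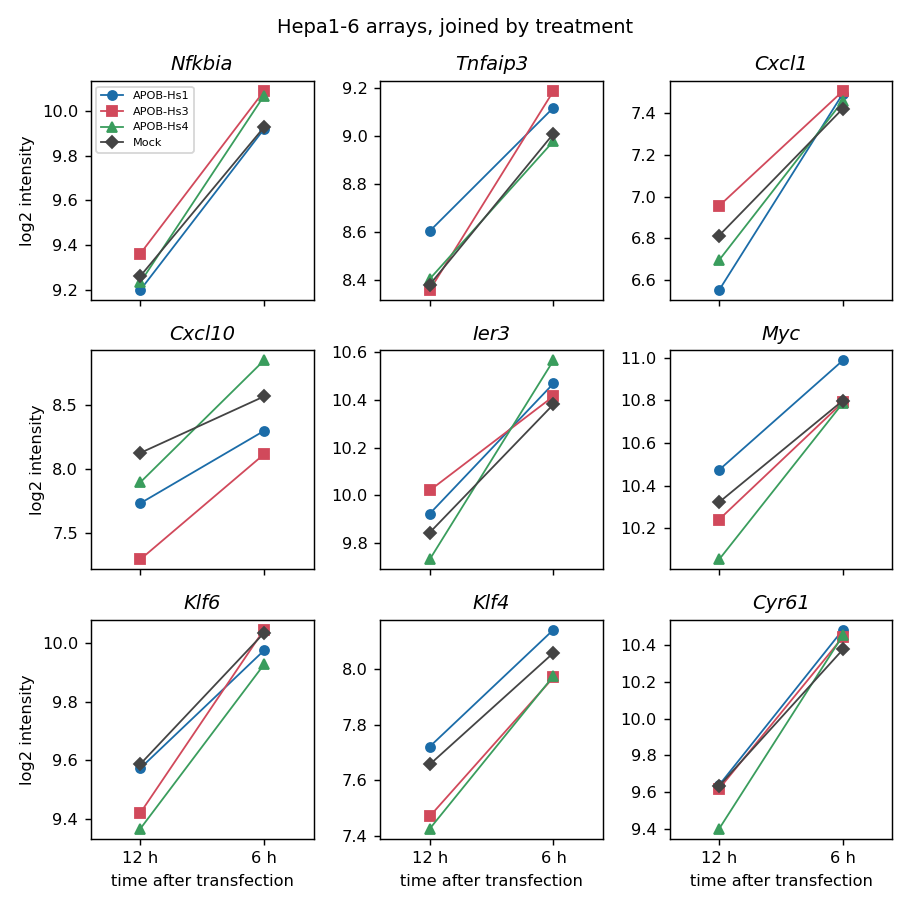
Log2 intensity (y axis, a separate scale in each panel) of 9 inflammatory, immediate early and cell shape genes on each Hepa1-6 array at 12 h (left) and 6 h (right), with a line joining the 2 arrays of each treatment. Every line is lower at 12 h, and the groups overlap for Cxcl10 alone, where 12 h reaches 8.12 and 6 h begins at 8.11.

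Cyr61, Rhob and Nr1d1, outside these lists, fell as well. Cyr61, a matricellular growth factor and YAP target, stood at 9.64, 9.62, 9.40 and 9.63 at 12 h, against 10.48, 10.44, 10.45 and 10.38 at 6 h (-0.87, SE 0.0673, adjusted p = 0.0151). It was the 1 of 22 YAP and SRF targets that passed, and the related Ctgf was at 0.30 (adjusted p = 0.0812), higher in all 4 treatments. Ctgf, with dim genes left out, rose past the test (adjusted p = 0.0157), and Cyr61 and Thbs1 (-0.29, adjusted p = 0.0363) fell, of 18 genes of the list. In that fit 4.14% of all genes rose and 2.22% fell, against 0.251% and 0.196% in the test of all genes. Rhob, a small GTPase of the actin skeleton and endosomes, stood at 9.34, 9.61, 9.21 and 9.49 at 12 h, against 10.01, 10.11, 10.02 and 10.04 at 6 h (-0.64, adjusted p = 0.0241). Neither Cyr61 nor Rhob overlapped between the times. Nr1d1, which encodes the clock repressor REV-ERB-alpha, stood at 6.47, 6.54, 6.32 and 6.24 at 12 h, against 6.95, 7.16, 7.04 and 7.04 at 6 h. It fell by 0.65 on the log2 scale without overlap (SE 0.0684, adjusted p = 0.0241), the 1 of 19 clock genes that passed. Its relative Nr1d2 was at 0.38 (adjusted p = 0.203), Per1 at 0.20, Per2 at -0.01 and Arntl at 0.08. Plk2, a kinase of the p53 target list, fell by 0.45 on the log2 scale (adjusted p = 0.0361) as the 1 of 20 genes of that list, and Cdkn1a, the best known p53 target, was at 0.10.

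Of 20 cholesterol synthesis and uptake genes, 4 fell and 0 rose, where 0.196% of all genes fell and 0.251% rose. Insig1, the sterol-sensing brake of SREBP processing and itself a target, stood at 7.10, 7.62, 7.71 and 7.26 at 12 h, against 7.90, 8.06, 8.26 and 8.004 at 6 h, and fell by 0.63 on the log2 scale (SE 0.0753, adjusted p = 0.0309). Idi1, the isomerase that makes dimethylallyl diphosphate, stood at 9.10, 9.16, 9.42 and 9.22 at 12 h, against 9.85, 9.75, 9.92 and 9.79 at 6 h, a difference of -0.60 (SE 0.0622, adjusted p = 0.0241). Cyp51, the lanosterol demethylase, stood at 9.56, 9.71, 9.85 and 9.77 at 12 h, against 10.25, 10.22, 10.22 and 10.23 at 6 h (-0.51, SE 0.0681, adjusted p = 0.0387). Nsdhl, a later sterol dehydrogenase, stood at 5.35, 5.37, 5.30 and 5.35 at 12 h, against 5.67, 5.87, 5.82 and 5.82 at 6 h (-0.45, adjusted p = 0.0364). No group of these 4 genes overlapped, where 8.56% of all genes did not overlap, but they were picked from the same arrays. Over the list 13 genes were lower in all 4 treatments, against 9.96% of all genes. The median was -0.29, with -0.33, -0.29, -0.28 and -0.17 by treatment. With dim genes left out all 20 stayed in the test, and 10 fell, where 2.22% of all genes in that fit fell. The additions were Dhcr7 (-0.38), Hsd17b7 (-0.34), Sqle (-0.32), Sc4mol (-0.31), Fdft1 (-0.30) and Fdps (-0.27). Hmgcs1, at the entry to the pathway, was at -0.08, and Mvd was at 0.00.

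The course then turned. Mean log2 intensity of Insig1 at 6, 12, 24 and 48 h was 8.05, 7.42, 8.35 and 8.92, and of Idi1 9.83, 9.23, 10.17 and 10.79. From arrays that the 12 h and 6 h comparison did not use, 48 h minus 24 h, 15 of the 20 genes rose and 0 fell, with a median of 0.60, where 217 genes of all rose (0.989%) and 163 fell (0.743%). With a treatment left out 10 to 14 of the 20 rose. Insig1 rose by 0.57 (adjusted p = 0.0159), Idi1 by 0.62 (0.00525), Cyp51 by 0.55 (0.00826) and Nsdhl by 0.79 (0.00325) over that later interval. The fatty acid and triglyceride synthesis list had 0 of 21 genes called at 12 h against 6 h (median -0.09, with 7 lower in all 4 treatments) and 8 higher at 48 h against 24 h. That later count was 4 or 5 with a treatment left out. Once dim genes were left out 3 of 17 fell at 12 h and 0 rose, where 2.22% of all genes in that fit fell. Its desaturase gene Scd1 was at -0.42 in the first interval (adjusted p = 0.159) and rose by 1.18 in the second (0.00157). Abca1, the cholesterol efflux pump, ran opposite to the synthesis genes in the first interval. It stood at 8.73, 8.77, 8.64 and 8.68 at 12 h, against 8.04, 8.20, 8.28 and 8.03 at 6 h, rose by 0.57 without overlap (SE 0.0698, adjusted p = 0.0311), and rose by 0.69 again at 48 h against 24 h (0.00344).

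**Figure D3:**
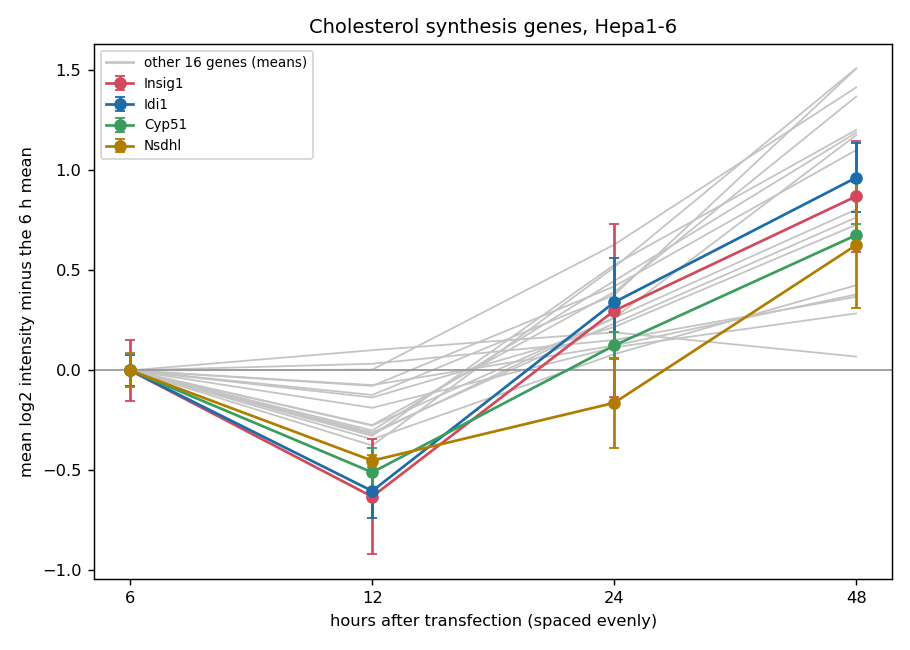
Mean log2 intensity of the 20 cholesterol synthesis and uptake genes in Hepa1-6 minus each gene's 6 h mean (y axis) at 6, 12, 24 and 48 h (x axis, spaced evenly), with the 4 genes past the test at 12 h coloured, the others grey and bars giving the SD of the 4 arrays. The coloured means dip to between -0.63 and -0.45 at 12 h and lie above their 6 h mean at 48 h.

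Other named genes fell outside these groups. Ppp1r3c, a subunit that brings protein phosphatase 1 to glycogen, stood at 8.04, 7.81, 7.73 and 7.96 at 12 h, against 7.39, 7.15, 7.05 and 7.38 at 6 h, and rose by 0.64 (SE 0.0545, adjusted p = 0.0199). Bard1, the partner of BRCA1 in DNA repair, rose by 0.63 (adjusted p = 0.0434), and Mre11a, a nuclease of double-strand break repair, fell by 0.53 on the log2 scale (adjusted p = 0.0364), although its other probe set gave -0.14. Cth, an enzyme of cysteine synthesis, rose by 0.47 (adjusted p = 0.0434) as the 1 of 28 genes of the ATF4 and amino acid response list, whose median was 0.02. The heat shock gene Hspa4l, a chaperone of the HSP110 type, rose by 0.59 (adjusted p = 0.0434) as the 1 of 21 genes of its list, whose median was 0.03. Both lists stand beside 0.251% of all genes higher. The zinc finger genes Zfp418 and Zfp748 rose by 0.78 and 0.69 (adjusted p = 0.0244 and 0.0322). Rps15a, named for a ribosomal protein, fell by 0.79 on the log2 scale (adjusted p = 0.0241), at 5.49 to 5.89 at 12 h, against 6.43 to 6.71 at 6 h. Ribosomal protein genes have many processed copies, and which copy this probe set reads was not tested. Pyhin1, of an interferon-inducible family, and Speer4c each rose by 0.67 (adjusted p = 0.0309 and 0.047) at levels well under the median of genes, and the other probe set of Pyhin1 gave 0.00. A930015D03Rik rose by 0.62, and AU023006 (-0.78), 5730499H23Rik (-0.65) and Npal1 (-0.60) fell.

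The remaining lists had 0 members called in either direction in the test of all genes. They were the unfolded protein response (20 measured, median 0.07), apoptosis and the BCL2 family (21, 0.04), autophagy and lysosome (22, 0.03), small RNA machinery (18, 0.02), hypoxia and glycolysis (33, 0.01), histone genes (23, 0.01), ribosomal proteins (23, 0.007), MAPK feedback regulators (19, -0.009), fatty acid oxidation and PPARA targets (20, -0.01), ribosome biogenesis and MYC targets (30, -0.03), the acute phase (26, -0.03), oncofetal liver genes (16, -0.03) and TGF-beta and BMP targets (21, -0.07). There were calls, with dim genes left out, in 7 of these 13 lists. In the small RNA machinery 3 of 16 rose and 1 fell, in hypoxia and glycolysis 1 of 29 rose and 3 fell, and in the TGF-beta list 2 of 13 rose and 1 fell. These counts stand beside 4.14% of all genes higher and 2.22% lower in that fit. The MAPK regulators are given above, and 1 gene passed in each of apoptosis (Pmaip1, -0.32), the acute phase (Fgb) and fatty acid oxidation (Ppargc1a, 0.43). By unadjusted p under 0.05, 1 to 9 members of each of these lists stood apart from 0, and over all genes 14.2% did (8.09% higher and 6.15% lower). The fall of Myc stood beside 0 of 30 ribosome biogenesis and MYC targets past the test. For these lists and those above, a call that was not made does not show that a gene was level.

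The siRNAs' target was read in every array. Apob encodes the protein around which liver cells build lipoprotein particles. With siRNA it stood at 6.57, 6.88 and 7.08 at 12 h, against 7.77, 8.17 and 7.88 at 6 h, and in mock cells at 9.47 at 12 h, against 9.27 at 6 h. It was lower at 12 h with each siRNA (-1.20, -1.30 and -0.80) and higher in mock (0.20). Over the 4 treatments its difference was -0.77 (SE 0.225, adjusted p = 0.203) and did not pass the test of time. The mean siRNA difference minus the mock difference was -1.30 for Apob (SE 0.215, unadjusted p = 0.000651), which over all genes gave an adjusted p of 1.00. No gene passed that comparison (0% of 21931), with 977 at an unadjusted p under 0.05 (4.45%). Mock is a single difference there, assumed to vary like the siRNA differences, so the lack of calls does not show that mock and transfected cells ran alike. At 48 h against 24 h Apob fell by 0.94 on the log2 scale (adjusted p = 0.00739) as a mean over all 4 treatments, mock included. That value does not separate siRNA from mock cells.

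**Figure D4:**
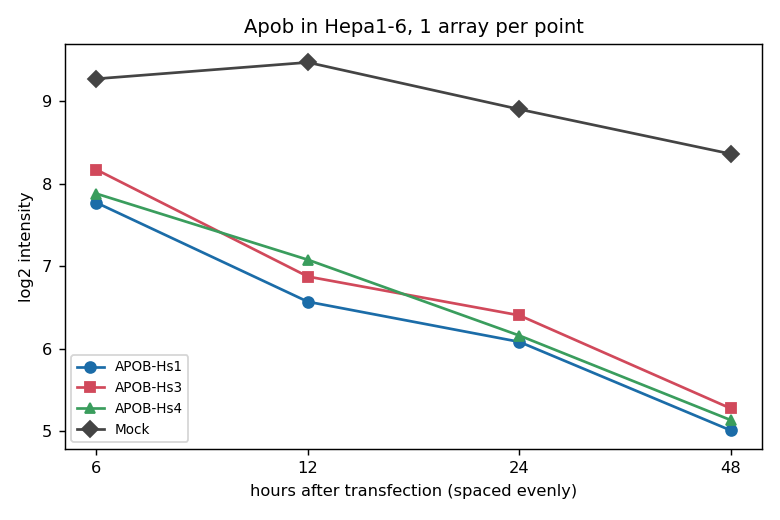
Log2 intensity of Apob (y axis) in Hepa1-6 at 6, 12, 24 and 48 h after transfection (x axis, spaced evenly), 1 array per point, by treatment. The mock line is above the siRNA lines at every time, and between 6 and 12 h it is the one that is higher at 12 h (by 0.20).

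The later interval showed how far the changes ran on. At 48 h against 24 h, 380 genes passed (1.73%). The count was 101 without the treatment block, and 91, 131, 164 and 126 with the pair of arrays of each treatment left out in turn. Of the 55 genes that rose at 12 h, 5 rose again and 9 fell. Of the 43 that fell at 12 h, 4 fell again and 4 rose. Among those that fell again, Mt2 averaged 11.73, 10.69, 10.04 and 9.22 at 6, 12, 24 and 48 h, and Tnfaip3 was at -0.63 from 24 to 48 h (adjusted p = 0.0218). The glutathione transferases turned: Gsta3 averaged 7.82, 8.62, 8.71 and 7.27 at the 4 times, with -1.44 at 48 h against 24 h (0.00715), and Gsta2 was at -1.52 (0.0193). In the NRF2 and redox list 11 of 26 genes fell in that interval, with Nqo1 at -1.32 (0.00338), and 0 rose. Of all genes 0.743% fell and 0.989% rose. The 11 became 3 without the treatment block, and 5, 4, 8 and 4 with each treatment left out in turn. Ccng2 rose on by 0.62 (0.043), Heca by 0.43 (0.0241) and Ppp1r3c by 0.82 (0.0478), while Rbm3, at 7.28 and 7.31, was at 0.03 (0.883). Mmp10 fell by 0.78 on the log2 scale (0.0276).

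The same interval in the human lines was read from 16 arrays each of HUH7 and PLC/PRF/5, with 8 treatments a line. These were the 3 siRNAs above, mock and 4 further siRNAs that Hepa1-6 was not given, labelled APOB-Hs2, Apob-Mm1, Apob-Mm2 and RAD18. For the 13362 genes with a partner of the same symbol, the difference in Hepa1-6 was tested against that in each human line. The human lines were read on another array type, so species, line and array cannot be told apart. Whether partners of the same symbol are orthologs was not checked. It departed from HUH7 in 1859 genes (13.9%, 9.62% above and 4.3% below) and from PLC/PRF/5 in 936 (7%, 2.62% above and 4.39% below). The balance moved with the scaling: after quantile normalization 1007 stood above and 751 below HUH7, and 443 above and 467 below PLC/PRF/5. With the 4 shared treatments alone the count against PLC/PRF/5 was 277. It was 580 without the Hepa1-6 pair of APOB-Hs1 and 583 without that of APOB-Hs3.

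Of the 98 genes 77 had a partner, and 46 of them stood apart from both human lines with the same sign, 30 above and 16 below. Since these genes were picked for a large difference in Hepa1-6, that count is a description. The tests between lines used the same 4 Hepa1-6 differences, so the p-values given for single genes below are descriptions too. Rbm3 differed by 1.09 to 1.22 across the Hepa1-6 treatments, against -0.24 to 0.04 in HUH7 and -0.08 to 0.00 in PLC/PRF/5 (Hepa1-6 minus HUH7 1.24, adjusted p = 4.53e-13, and minus PLC/PRF/5 1.18, adjusted p = 1.29e-12). Its 4 Hepa1-6 values lay above all 16 human values. Myc differed by -0.74 to -0.48 in Hepa1-6, against -0.01 to 0.33 in HUH7 and 0.05 to 0.30 in PLC/PRF/5 (-0.76 and -0.73 between lines, adjusted p = 8.89e-08 and 5.3e-07). Insig1 differed by -0.80 to -0.44 in Hepa1-6, against 0.42 to 0.83 in HUH7 and -0.16 to 0.36 in PLC/PRF/5 (-1.18 and -0.74, adjusted p = 8.82e-08 and 7.86e-05). Neither Myc nor Insig1 overlapped with either human line.

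**Figure D5:**
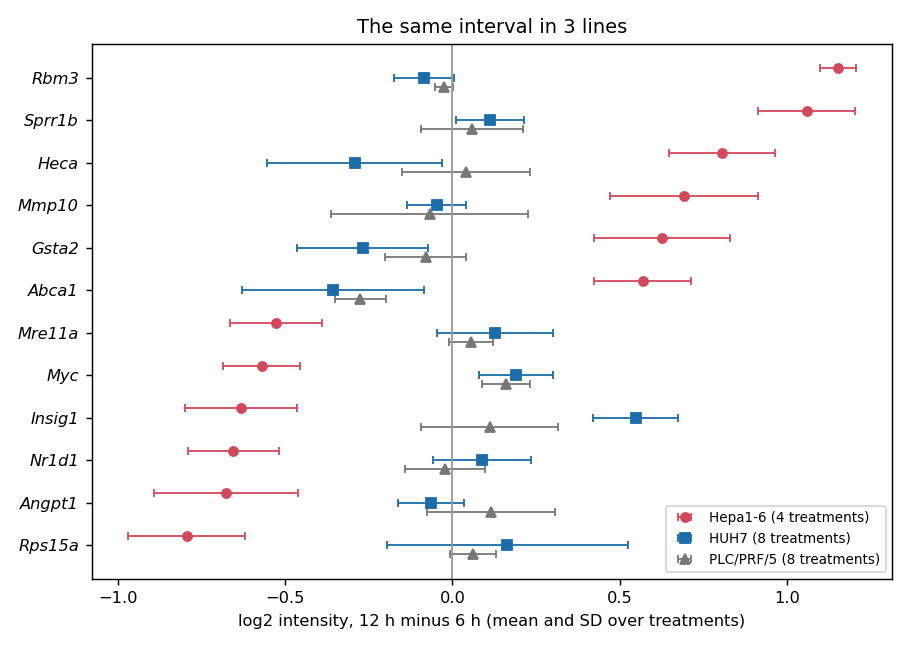
Mean log2 difference 12 h minus 6 h (x axis) in Hepa1-6, HUH7 and PLC/PRF/5, with bars for the SD over treatments (4, 8 and 8), for the 12 genes chosen for standing apart most from both human lines. The Hepa1-6 means lie between 0.57 and 1.15 or between -0.79 and -0.53, and the human means lie between -0.36 and 0.19, except Insig1 in HUH7 at 0.55.

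The cholesterol list separated the lines. Of its 18 paired genes 12 lay below both HUH7 and PLC/PRF/5 past the test, and 0 lay above both, where of all paired genes 209 lay below both (1.56%) and 213 above both (1.59%). The list's median was -0.29 in Hepa1-6, against 0.004 in HUH7 and 0.08 in PLC/PRF/5. Of 25 immediate early genes 4 lay below both (Myc, Klf4, Egr1 and Jun) and 2 above both, beside the same shares of all paired genes. Of 25 NF-kB and inflammation genes 4 lay above both and 1 below both, beside the same shares. That list's median was -0.11 in Hepa1-6, against -0.25 in HUH7 and -0.18 in PLC/PRF/5. Its members Nfkbia, Tnfaip3 and Cxcl1 were lower at 12 h in every treatment of all 3 lines. Cxcl1 was at -0.72 in Hepa1-6, against -0.81 in HUH7 and -0.73 in PLC/PRF/5, with differences between lines of 0.09 and 0.02 (SE 0.113 each, adjusted p = 0.638 and 0.961). Tnfaip3 was at -0.64 in Hepa1-6, against -0.47 in HUH7 and -0.59 in PLC/PRF/5 (adjusted p = 0.122 and 0.768). Nfkbia lay 0.19 below HUH7 (-0.19, SE 0.0488, adjusted p = 0.0103) and 0.02 from PLC/PRF/5 (-0.02, adjusted p = 0.859). Ppp1r3c was at 0.64 in Hepa1-6, against 0.50 in HUH7 and 0.46 in PLC/PRF/5 (adjusted p = 0.474 and 0.402).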

How the data were processed

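The deposited values were intensities per probe set on a linear scale, summarised by the authors with RMA per the submitters' processing notes. Neither the RMA version nor the genome build is given in the sources used here. Their log2 was taken here. Of 43681 mouse probe sets 30342 carried 1 gene symbol in the array annotation, 0 several and 13339 none. Each gene was read from its probe set with the highest mean over the 16 Hepa1-6 arrays (21931 genes). The linear models of limma (version 3.58.1; R 4.3.3; package data.table, version 1.17.8) held time, with treatment as a block, over the 8 arrays, two-sided, adjusted over all genes by Benjamini-Hochberg at 0.05. The same model served 48 h minus 24 h. Differences per treatment were compared between siRNA and mock, and between Hepa1-6 and the human lines in 1 fit with 3 lines as groups, genes paired by annotated symbol without regard to case. Fits were tested on simulated data. The number of arrays limits the precision, and no detection calls were used.

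The pairing is by treatment. Deviations from the time means correlated across genes at 0.247, 0.0977, 0.171 and 0.123 between the 12 h and 6 h arrays of a treatment, and each treatment correlated best with itself.

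Named were Apob, the 15 genes with the largest rise and the 15 with the largest fall past the test, up to 5 members past the test per gene list, and 6 genes per direction standing apart most from both human lines. Genes, lists and comparison were chosen with earlier results of these data known. Alternatives were no block, all 16 Hepa1-6 arrays, quantile normalization, a mean over a gene's probe sets, dim genes left out and each treatment left out. Added after seeing the data were a prior variance that follows the level, and each treatment left out together with the dim genes. No sequence is shown.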

Additional observations from a re-analysis of the deposited data

Results flagged for a closer look

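In 2 of 44 named genes 1 treatment stood far from the other 3 in its 12 h minus 6 h difference, where chance gives about 1 in 20. Mmp13 was at 0.52 to 0.54 with the siRNAs, against 0.69 in mock, and Zfp418 was at 1.09 with APOB-Hs3, against 0.64 to 0.71 elsewhere.

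Of the 98 genes that changed 77 had a human partner, and 46 of these departed from both human lines in limma's test. Of all paired genes 213 lay above both (1.59%) and 209 below both (1.56%). The genes were picked for a large difference in Hepa1-6, so the count is a description. The 12 that stood apart most are given here. The values, as Hepa1-6 minus HUH7 and then Hepa1-6 minus PLC/PRF/5, were 1.24 and 1.18 for Rbm3, 0.95 and 1.00 for Sprr1b, 0.92 and 0.84 for Abca1, 1.10 and 0.76 for Heca, 0.74 and 0.76 for Mmp10, and 0.89 and 0.71 for Gsta2. Lower in Hepa1-6 were Insig1 (-1.18 and -0.74), Rps15a (-0.96 and -0.86), Myc (-0.76 and -0.73), Nr1d1 (-0.74 and -0.63), Angpt1 (-0.61 and -0.79) and Mre11a (-0.65 and -0.58).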

How the results depend on the processing

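The 98 genes kept their sign in every alternative in which they were tested, but most alternatives could not have changed it. Only quantile normalization and the mean of all probe sets could. Without the replicate block 141 genes passed (84 of the 98 among them), with quantile normalization 110 (95) and with the mean of all probe sets 85 (77). All 16 Hepa1-6 arrays gave 170 (75), dim genes left out 697, and a prior variance that follows the level 959. The prior SD was 0.0758 in bright and 0.135 in dim genes. Leaving out a treatment gave 0 to 3, and 80 to 269 with dim genes left out as well. Fewer arrays leave fewer degrees of freedom. Of the 44 named genes, 41 to 43 lost their call when a treatment was left out, and 9, 4 and 4 with all 16 arrays, no block and the mean of probe sets. Apob passed with the level-dependent prior. The siRNA against mock count stayed at 0 in the alternatives run, with 399 to 1162 genes at an unadjusted p under 0.05. For 48 h minus 24 h, 101 genes passed without the replicate block, and 91 to 164 with a treatment left out. Against HUH7 the count ran from 1247 to 1758, with 1366 to 1555 when a treatment was left out. Against PLC/PRF/5 the 4 shared treatments gave 277, and leaving out a treatment 580 to 807. The cause of these shifts was not tested.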

Other observations

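Heat shock genes differed between the lines. Over 20 paired genes of the list the median difference was 0.03 in Hepa1-6, against 0.34 in HUH7 and 0.14 in PLC/PRF/5. Past the test, 11 genes lay below HUH7 and 0 above (4.3% and 9.62% of all paired genes), 3 lay below PLC/PRF/5 and 0 above (4.39% and 2.62%), and the 3 below both were Hspa1a, Hspa1b and Dnajb4. Hspa1a, the inducible HSP70, was at -0.25 in Hepa1-6 (adjusted p = 0.256), against 0.88 in HUH7 and 0.50 in PLC/PRF/5, on a mouse probe set under the median level (a mean of 4.40 at 12 h and 4.65 at 6 h). After quantile normalization the list again had 11 genes below HUH7 and 0 above, and 3 below PLC/PRF/5 and 1 above. Of 30 paired genes of the G1/S phase and DNA replication 19 lay above HUH7 and 1 below, and 1 lay above PLC/PRF/5 and 1 below. Their medians were 0.05 in Hepa1-6, -0.20 in HUH7 and -0.02 in PLC/PRF/5. Of 27 paired genes of G2/M and mitosis 15 lay below PLC/PRF/5 and 0 above, while 8 lay above HUH7 and 2 below. Their medians were 0.03 in Hepa1-6, -0.03 in HUH7 and 0.29 in PLC/PRF/5. The counts of both lists stand beside the same shares of all genes. The balance of all genes moved with quantile normalization, to 1007 above and 751 below HUH7 and 443 above and 467 below PLC/PRF/5. There 16 G1/S genes lay above HUH7 and 2 below, and 14 G2/M genes lay below PLC/PRF/5 and 0 above. Against HUH7, 5 G2/M genes lay above and 5 below after that normalization. With the 4 shared treatments alone 13 G1/S genes lay above HUH7, and 9 G2/M genes below PLC/PRF/5.

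Genes with Zfp symbols were grouped after their values were seen. Of 282, 5 rose and 0 fell, 65 were higher and 34 lower in all 4 treatments, and the median difference was 0.04. Over all genes 0.251% rose and 0.196% fell, and 13.9% were higher and 9.96% lower in all 4 treatments. With dim genes left out 21 of 194 rose and 3 fell, where 4.14% of all genes rose and 2.22% fell. At 48 h against 24 h their median was -0.05.

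In the ATF4 and amino acid response list, which had 1 of 28 genes higher at 12 h, 10 rose and 1 fell at 48 h against 24 h, where 0.989% of all genes rose and 0.743% fell. Among those that rose were Pycr1 (1.27), Trib3 (0.98) and Chac1 (0.89). With a treatment left out 2 to 8 genes of the list rose and 1 fell, while the count over all genes fell to between 91 and 164.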
